A study of Mus musculus with 6 samples.

Results

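The genes for FGF receptors, their main docking adaptor and 3 of their ligands were followed in cultured mouse podocytes exposed to recombinant human FGF1. The 10 genes were chosen by their role in the pathway, with earlier results of these data known. For a symbol with several loci, the locus with the highest mean FPKM was to be taken. The members are the receptor tyrosine kinases Fgfr1, Fgfr2, Fgfr3 and Fgfr4, the receptor-like Fgfrl1, the co-receptor Klb, the adaptor Frs2, and the ligands Fgf1, Fgf2 and Fgf7. All 10 were found among the 24469 loci of the expression table, and 7 of them reached the mean of at least 1 FPKM that was required for testing across genes. FPKM are fragments assigned to a locus, scaled to transcript length and to the mapped fragments of the library, so levels of different genes can be set side by side per length of transcript.

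RNA-Seq was done on 6 libraries of MPCs, a conditionally immortalized mouse podocyte line that divides at 33 °C with interferon gamma and was differentiated for 10 days at 37 °C without it. All libraries came from cells in high glucose (HG, 25 mM for 12 h after starvation for 12 h), in 3 groups of 2. The HG group received no FGF1, and the other groups were pretreated for 1 h with 100 ng/mL of either wild-type recombinant human FGF1 (rFGF1WT) or rFGF1ΔHBS, a partial agonist in which 3 lysines of the heparan sulfate-binding site were replaced. No normal-glucose library was analysed here, so every comparison is among cells in HG, and as all libraries come from 1 immortalized line they hold no animals. Nothing in the labels says that the replicates were separate cultures, so p-values measure only the spread between these libraries, which may be technical.

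FGFs are secreted proteins that bind a receptor tyrosine kinase together with heparan sulfate, and the paired receptors phosphorylate each other and the membrane-anchored adaptor FRS2. FRS2 then recruits GRB2, GAB1 and the phosphatase SHP2, and passes the signal to the RAS, ERK and AKT pathways. ERK raises transcription factors of the ETV family together with Sprouty, Spred and dual-specificity phosphatase proteins, which damp the pathway. FGF1 can activate all 4 signalling receptors, and podocytes and other kidney cells carry several of them.

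The spacing of low FPKM values corresponded to about 22300000 to 23200000 fragments per library, if 1 step is 1 fragment, so the 6 libraries were close to each other in depth. Of 12 podocyte markers 11 were listed and 6 had a mean of at least 1 FPKM, with the actin cross-linker Actn4 and the adaptor Cd2ap in front. Wt1, a transcription factor that marks mature podocytes, was under 0.1 FPKM, so the labelled cell type had only part of its marker set. The summed FPKM of the podocyte markers was 187 to 195 in HG, 200 to 215 with rFGF1WT and 203 to 204 with rFGF1ΔHBS. The markers did not move together, as Actn4 was at 83.2 to 86.4 FPKM in HG and 99.7 to 106 with FGF1, whereas Synpo (9.58 and 10.2 against 4.01 to 6.83), Mme (23.7 and 25.8 against 14.1 to 16.9) and Podxl (16.7 and 17.6 against 14.8 to 15.8) were lower in all 4 libraries with FGF1. Endothelial markers summed to at most 0.167 FPKM and immune markers to at most 0.267. Mesangial and stromal markers summed to 47.6 to 50.4 in HG, 48.1 to 50.0 with rFGF1WT and 45.4 to 47.2 with rFGF1ΔHBS. The 2 most abundant of them moved in opposite directions in all 4 libraries with FGF1. Pdgfrb was lower (31.8 and 32.7 FPKM in HG against 26.1 to 27.5) and Acta2 was higher (10.8 and 12.7 against 14.1 to 17.7). Tubular markers were led by Cdh16 and Lrp2 and summed to 114 to 123 in HG against 93.1 to 94.3 with rFGF1WT and 91.1 to 96.3 with rFGF1ΔHBS, whereas Epcam was under 0.1 and Slc34a1 and Umod were not listed. This sum was lower with both proteins, as were several receptor genes, and its part in their values was not tested.

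Against HG, 1 ligand gene and 1 receptor-bearing locus passed the test with either protein, the first as higher and the second as lower. Fgf7 was about 2-fold higher, and the locus that joins Fgfr2 with Ctbp2 was lower by 44.1% with rFGF1WT and by 36.8% with rFGF1ΔHBS. These passed an adjusted p of 0.05 in limma with each protein, while none of the 7 tested members also passed the limit of a 2-fold change on the scale of log2(FPKM + 1). Of all 10562 loci tested, 6.19% passed the adjusted p with rFGF1WT (3.26% higher, 2.94% lower) and 6.26% with rFGF1ΔHBS (3.37% higher, 2.89% lower), and 1.01% and 0.899% also passed the 2-fold limit. At an unadjusted p of 0.05, 3 of the 7 members passed with rFGF1WT and 4 with rFGF1ΔHBS, against 24.8% and 24.9% of all loci. The HG libraries served in both comparisons, so likeness between them is no independent support.

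**Figure D1:**
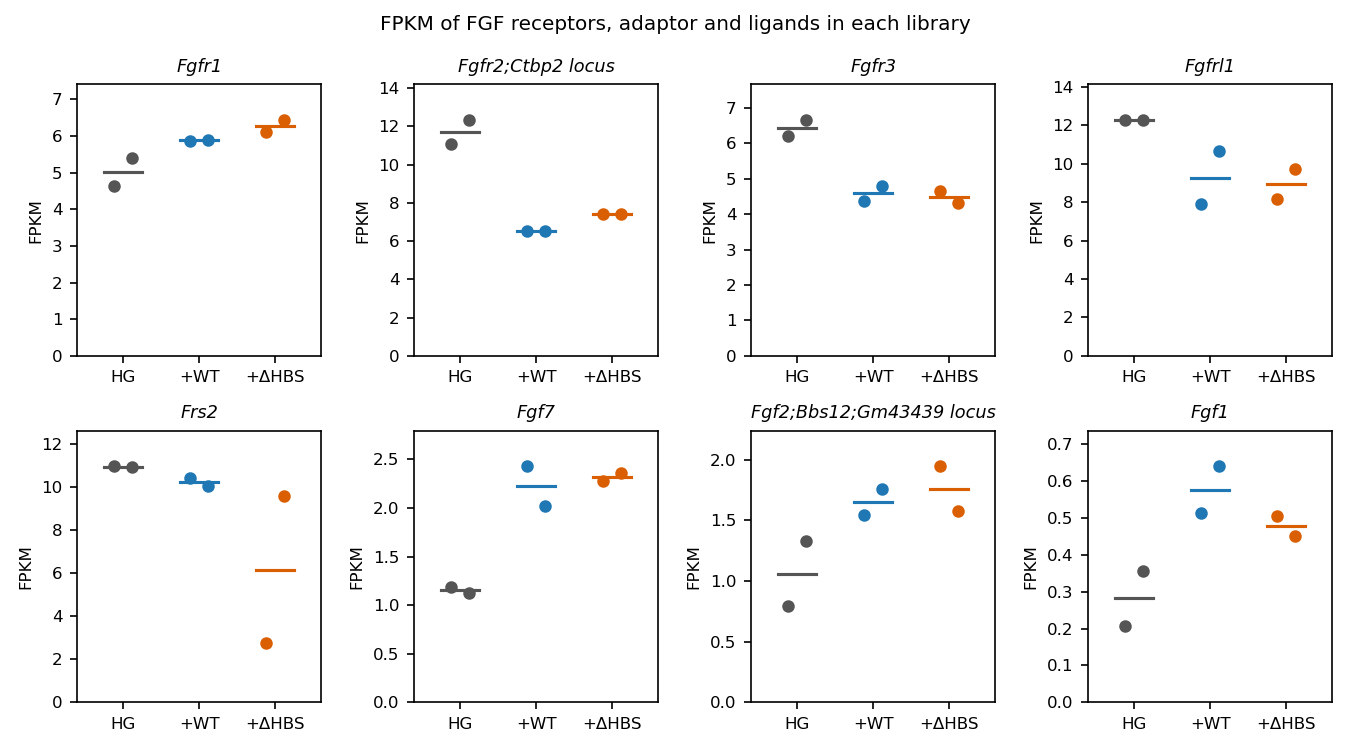
FPKM (vertical axes, each from 0) of 8 loci in the 2 libraries of HG, HG with rFGF1WT (+WT) and HG with rFGF1ΔHBS (+ΔHBS). Points are single libraries and bars are group means. The 2 HG libraries lie apart from all 4 libraries with FGF1 in every panel, as they do for 42.6% of all 10562 tested loci. Fgf1, under 1 FPKM on average, is not among the tested loci. For Frs2, 1 library with rFGF1ΔHBS stands far below the others.

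In HG, transcripts of Fgfrl1 were at 12.3 FPKM and the merged Fgfr2 and Ctbp2 locus was at 11.7, as means of 2 libraries with overlapping values. Frs2 followed at 10.9 FPKM, then Fgfr3 at 6.43 and Fgfr1 at 5.03, and each of these lay below its neighbour in both libraries. The ligand genes were lower, with Fgf7 at 1.16 and the Fgf2 locus at 1.06 FPKM, whose ranges overlapped, and Fgf1 at 0.281. Klb and Fgfr4 were near 0. Apart from Fgfr4 and Klb, receptor and adaptor transcripts stood above those of the 3 ligands in every library.

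Fgfr1 encodes the receptor most widely expressed in mesenchymal cells and lies on chromosome 8 at 25513654 to 25575718 of GRCm38, on the plus strand. Its level was 4.64 and 5.42 FPKM in HG, 5.87 and 5.90 with rFGF1WT, and 6.11 and 6.44 with rFGF1ΔHBS. Both protein groups were above HG without overlap, by 17.0% and 24.8% of the mean, as 58.2% of all loci with rFGF1WT and 57.3% with rFGF1ΔHBS did not overlap HG in one direction or the other. The log2 fold change was 0.19 with rFGF1WT (SE 0.086, adjusted p = 0.263) and 0.27 with rFGF1ΔHBS (SE 0.086, adjusted p = 0.152), so neither difference passed the test.

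The patterns most like that of Fgfr1 over the 6 libraries, among 10272 loci above 0 in all of them, were those of Psd3 (Pearson's r = 0.997), Sephs1 (r = 0.994) and Il1f6 (r = 0.991). These correlations describe 6 points that share libraries and treatment groups.

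Fgfr2 encodes a receptor whose splice forms divide epithelial from mesenchymal tissue. The table gives it no value of its own. Its 26 annotated transcripts, listed between 130162451 and 130266263 on the minus strand of chromosome 7, were counted as 1 locus together with 16 transcripts of Ctbp2 (132987563 to 133124354), a transcriptional co-repressor, so a change of one gene cannot be told apart from a change of the other. The annotation holds 1 Fgfr2 transcript that reaches into Ctbp2, and this one is not listed in the locus. In all, the locus lists 44 transcripts, of which 42 are in the annotation.

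The merged locus was at 11.1 and 12.3 FPKM in HG, 6.54 and 6.56 with rFGF1WT, and 7.40 and 7.41 with rFGF1ΔHBS. Both HG libraries stood well above all 4 others. The locus fell by 0.75 on the log2 scale with rFGF1WT (SE 0.0698, adjusted p = 0.0170) and by 0.60 with rFGF1ΔHBS (SE 0.0698, adjusted p = 0.0248). With any 1 library left out the adjusted p ran from 0.0540 to 0.0815 and from 0.0680 to 0.10, so the call needs all 6 libraries, while the direction stayed.

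Fgfr3, whose receptor restrains growth in cartilage and is found in many epithelia, lies on chromosome 5 at 33721674 to 33737068 on the plus strand. It was at 6.21 and 6.65 FPKM in HG, 4.38 and 4.80 with rFGF1WT, and 4.65 and 4.32 with rFGF1ΔHBS. The 4 libraries with FGF1 overlapped each other and lay below both HG libraries, with means lower by 28.6% and 30.2%. The log2 fold change of -0.41 with rFGF1WT (SE 0.0780, adjusted p = 0.0640) and of -0.44 with rFGF1ΔHBS (SE 0.0780, adjusted p = 0.0549) missed the threshold of limma. When the mean of both protein groups was set against HG, a comparison added after these values were seen, the log2 fold change was -0.42 with an adjusted p of 0.0346, the lowest over all settings tried, which reached 0.203. In that comparison 10.1% of all loci passed the adjusted p, among them also Fgf7 (0.60, adjusted p = 0.0266) and the Fgfr2 and Ctbp2 locus (-0.67, adjusted p = 0.0117), and none of the other 4 tested members did. With no filter the joint comparison gave an adjusted p of 0.0712 for Fgfr3 and 0.0749 for Fgf7, above the threshold, and 0.0230 for the Fgfr2 and Ctbp2 locus.

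The 200 bases before the start of Fgfr3 (chr5:33721474-33721673, plus strand, GRCm38.p6, from RefSeq) are shown because Fgfr3 was the single receptor gene with a locus of its own that passed in this joint comparison with the filter on low loci. Capitals mark the GC box, with the letters GGGCGG, here on the minus strand, which was the 1 motif found of those searched.
Fgfr3 promoter: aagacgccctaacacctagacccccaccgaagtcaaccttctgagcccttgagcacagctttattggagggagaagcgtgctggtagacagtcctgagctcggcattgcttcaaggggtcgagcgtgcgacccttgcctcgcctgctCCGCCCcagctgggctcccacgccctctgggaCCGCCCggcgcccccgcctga

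**Figure D2:**
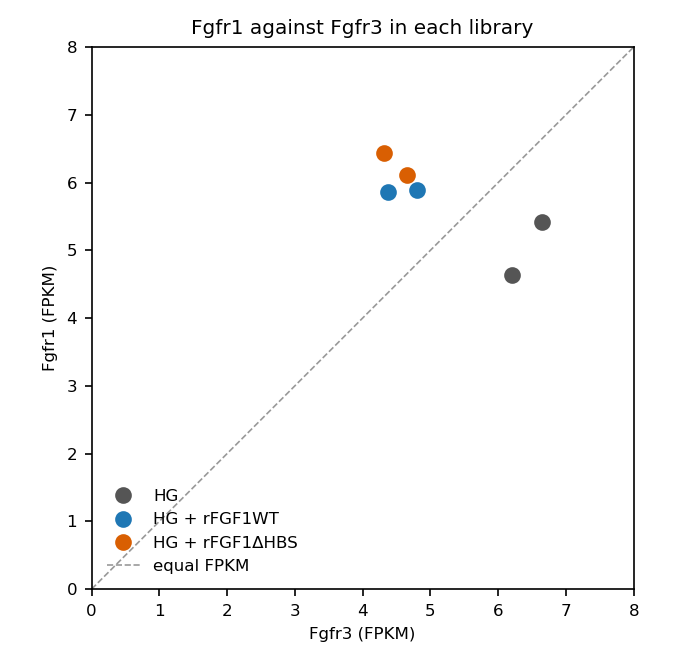
Fgfr1 (vertical axis) against Fgfr3 (horizontal axis), both in FPKM, for each of the 6 libraries, with a dashed line at equal FPKM. Both HG libraries lie below the line and all 4 libraries with rFGF1WT or rFGF1ΔHBS lie above it.

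The order of Fgfr1 and Fgfr3 was opposite in HG and with FGF1. The ratio of Fgfr1 to Fgfr3 was 0.747 and 0.814 in HG, 1.34 and 1.23 with rFGF1WT, and 1.31 and 1.49 with rFGF1ΔHBS. Group means were 0.781 ± 0.0473 in HG, 1.28 ± 0.0779 with rFGF1WT and 1.40 ± 0.126 with rFGF1ΔHBS (SD, n = 2 each). The sum of both genes was 10.84 and 12.07 FPKM in HG and 10.25 to 10.76 with FGF1. With 1 gene higher and 1 lower, a sum moves less than the ratio by construction, so nothing is concluded from it. The ratio is given as a description, with no test. It was not among the planned results, and it sets a gene that was higher with FGF1 against a gene that was lower. Neither gene passed in limma with either protein alone.

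Fgfr4 encodes the receptor that pairs with beta-klotho in hepatocytes, and lies on chromosome 13 at 55152640 to 55168759. It was listed at 0 in 4 of 6 libraries, at 0.0126 FPKM in the second HG library and at 0.00511 in the first with rFGF1WT. For its single transcript of 3324 bases these values correspond to less than 1 fragment per library. Klb, the gene of beta-klotho, which presents endocrine FGFs to receptors, lies on chromosome 5 at 65348314 to 65384007. It was listed at 0 and 0.0186 FPKM in HG, 0.0163 and 0.0164 with rFGF1WT, and 0.0189 and 0.0331 with rFGF1ΔHBS, which is at most 2.65 fragments. At this depth no difference between groups was detectable for either gene, and no fold is given.

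Fgfrl1 encodes a receptor that binds FGFs but has no kinase domain, and it lies on chromosome 5 at 108692382 to 108706924. Its level was 12.25 and 12.27 FPKM in HG, 7.88 and 10.6 with rFGF1WT, and 8.15 and 9.71 with rFGF1ΔHBS. All 4 libraries with FGF1 were below HG, but the SD of the rFGF1WT replicates was 1.95 FPKM. Neither the log2 fold change of -0.38 with rFGF1WT (SE 0.160, adjusted p = 0.240) nor that of -0.42 with rFGF1ΔHBS (SE 0.160, adjusted p = 0.207) passed. Relative to Fgfr1, Fgfrl1 was 2.27- to 2.64-fold as abundant in HG and 1.34- to 1.80-fold with FGF1.

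Frs2 encodes the adaptor that links activated receptors to GRB2 and SHP2, and lies on chromosome 10 at 117069427 to 117148534 on the minus strand. It was at 11.0 and 10.9 FPKM in HG, 10.4 and 10.0 with rFGF1WT, and 2.75 and 9.57 with rFGF1ΔHBS. The first library with rFGF1ΔHBS stood far below the other 5, which ranged from 9.57 to 11.0. The log2 fold change was -0.09 with rFGF1WT (adjusted p = 0.934) and -0.92 with rFGF1ΔHBS (SE 0.508, adjusted p = 0.354). Without the first rFGF1ΔHBS library the latter was -0.18, and without the second it was -1.67 with an adjusted p of 0.0235 (up to 0.555 under the other settings), so 1 library decides the value.

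**Figure D3:**
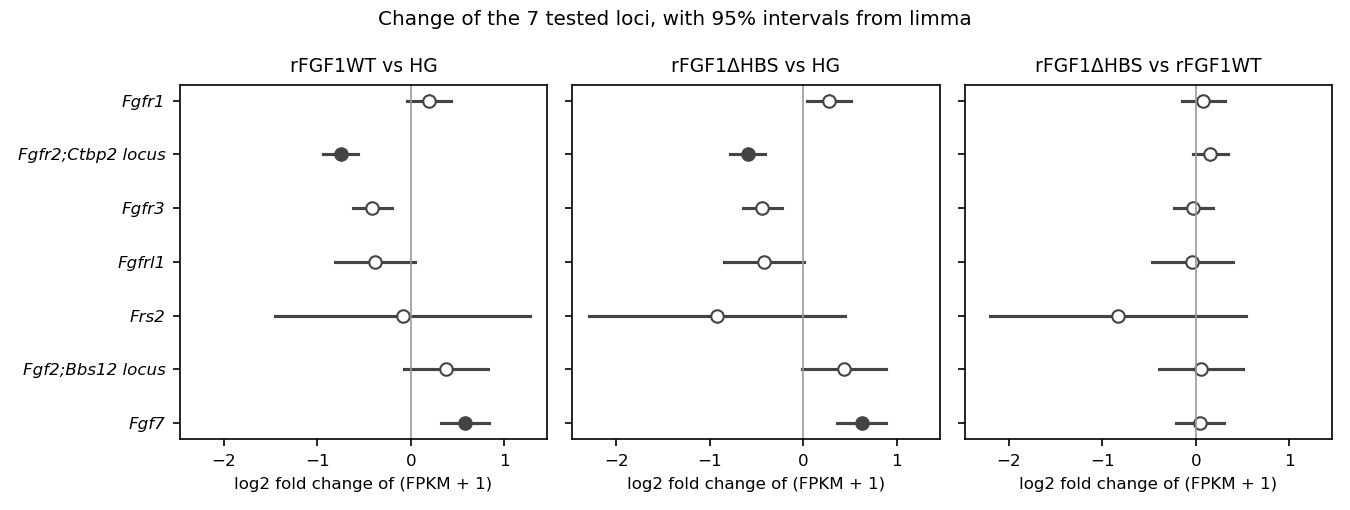
Log2 fold change of FPKM + 1 (horizontal axes) of the 7 tested loci (vertical axis) in 3 comparisons, as circles with 95% intervals from limma. Filled circles have an adjusted p under 0.05. Fgf7 and the Fgfr2 and Ctbp2 locus are filled in both comparisons with HG, and every circle is open between the proteins.

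Fgf7 encodes keratinocyte growth factor, which stromal cells make and which acts on the epithelial splice form of FGFR2. It lies on chromosome 2 at 126034658 to 126091185 on the plus strand. Its level was 1.18 and 1.13 FPKM in HG, 2.43 and 2.02 with rFGF1WT, and 2.28 and 2.36 with rFGF1ΔHBS. The groups with FGF1 lay well above HG and overlapped each other, with mean FPKM 1.92-fold and 2.0-fold that of HG. On the scale of log2(FPKM + 1), which understates changes of low genes, Fgf7 rose by 0.58 with rFGF1WT (SE 0.0965, adjusted p = 0.0492) and by 0.62 with rFGF1ΔHBS (SE 0.0965, adjusted p = 0.0421). Its FPKM correspond to at most 67.5 to 145 fragments per library. The adjusted p was above 0.05 when low loci were kept in the fit (0.134 and 0.113) and with any 1 library left out (0.0830 to 0.155 and 0.0619 to 0.139).

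The 250 bases before the start of Fgf7 (chr2:126034408-126034657, plus strand, GRCm38.p6, from RefSeq) are shown because it was the 1 member that rose. Of the GC box GGGCGG, the TATA box TATAAA, the AP-1 motif TGACTCA, the CRE motif TGACGTCA and the ETS motif CCGGAAG, searched on both strands, none was present, so it has no capitals.
Fgf7 promoter: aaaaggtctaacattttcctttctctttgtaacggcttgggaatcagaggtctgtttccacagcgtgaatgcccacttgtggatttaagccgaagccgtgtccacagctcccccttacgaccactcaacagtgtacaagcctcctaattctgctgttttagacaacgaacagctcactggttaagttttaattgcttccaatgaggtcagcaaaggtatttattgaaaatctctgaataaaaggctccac

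The sequence before Fgf7 was 43.6% G and C, and that before Fgfr3 65.0%. In the RefSeq windows of 250 bases before to 50 after a start, which covered 8 of the 10 members, the GC box was found for Fgfr3, Fgfr4, Fgfrl1, Frs2 and Fgf2 and in 35.7% of all 32851 windows. The ETS motif was found for Fgfrl1 and Frs2 and in 8.86% of all windows. The TATA box (13.6% of all windows), AP-1 (5.20%) and CRE (1.79%) letters were in none of the members' windows. These are matches of letters in short windows and show no binding.

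Fgf2 encodes basic FGF, a ligand without a classical signal peptide that is stored on heparan sulfate. Its single listed transcript, on chromosome 3 at 37348346 to 37410108 on the plus strand, was merged with 2 transcripts of Bbs12 and 1 of the noncoding Gm43439, and its end overlaps the antisense gene Nudt6, so these genes cannot be told apart. The merged locus was at 0.792 and 1.33 FPKM in HG, 1.55 and 1.76 with rFGF1WT, and 1.95 and 1.58 with rFGF1ΔHBS. All 4 libraries with FGF1 were higher, with an SD of 0.380 FPKM between the HG libraries. Neither the log2 fold change of 0.38 with rFGF1WT (SE 0.167, adjusted p = 0.264) nor that of 0.43 with rFGF1ΔHBS (SE 0.167, adjusted p = 0.213) passed.

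Fgf1, the gene whose human protein was added to the cultures, lies on chromosome 18 at 38838673 to 38929472 on the minus strand. Added protein carries no RNA, so its FPKM describe the endogenous mouse gene. They were 0.208 and 0.355 in HG, 0.512 and 0.639 with rFGF1WT, and 0.504 and 0.450 with rFGF1ΔHBS, equal to at most 19.1 to 57.6 fragments. Both protein groups were above HG without overlap, but the shares of loci without overlap given here do not cover loci under 1 FPKM. As its mean was under 1 FPKM, it was fitted only without the filter, where the log2 fold change was 0.30 with rFGF1WT (SE 0.0840, adjusted p = 0.223) and 0.21 with rFGF1ΔHBS (SE 0.0840, adjusted p = 0.373).

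In all, 3 of the 7 tested members were higher and 4 were lower in all 4 libraries with FGF1 than in both HG libraries. Of all loci tested, 42.6% were likewise on one side, so the separation by itself is common in these libraries. With 2 libraries a group, an exact two-sided permutation test of a single value cannot go below a p of 0.333.

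The mutant differs from wild-type FGF1 in the heparan sulfate-binding site, and dose and time were the same, so both proteins were compared directly. None of the 7 tested members passed in limma, at an adjusted p of 0.05 or at an unadjusted p of 0.05, where 0.549% and 4.87% of all loci passed these and 0.35% passed the adjusted p and the 2-fold limit. The log2 difference of rFGF1ΔHBS from rFGF1WT was 0.08 for Fgfr1 (95% interval -0.15 to 0.31, adjusted p = 0.914), 0.16 for the Fgfr2 and Ctbp2 locus (-0.03 to 0.34, adjusted p = 0.905) and -0.03 for Fgfr3 (-0.24 to 0.18). It was 0.04 for Fgf7 (-0.21 to 0.30) and 0.06 for the Fgf2 locus (-0.40 to 0.51). For these 5 loci the intervals leave room for differences of up to 0.31, 0.34, 0.24, 0.30 and 0.51 in size, so an equal response is not shown. For Fgfrl1 the interval was -0.47 to 0.39 and for Frs2 -2.20 to 0.53.

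Between the proteins, the libraries of 3 of the 7 tested members did not overlap, with Fgfr1 and the Fgfr2 and Ctbp2 locus higher and Frs2 lower with rFGF1ΔHBS, where 34.5% of all tested loci were without overlap. Of the 3 members under 1 FPKM, Fgf1 was lower and Klb higher without overlap, at the levels of few fragments given for them. The share of 34.5% does not cover such low loci. The largest fitted difference among the 7 tested members was that of Frs2, which rests on the single low library.

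Other genes of FGF signalling were taken from a list of 71 by role, of which 63 were in the table and 45 were tested. With rFGF1WT 5 rose and 1 fell at an adjusted p of 0.05, where 6.19% of all loci passed. With rFGF1ΔHBS 5 rose and 2 fell, where 6.26% did. Among those that rose, Etv4, Etv5 and Spry4 entered this fit only through the libraries with FGF1, so the counts are descriptions. In the limma fit without the filter, 5 and 4 of the 63 passed with rFGF1WT and rFGF1ΔHBS, against 407 and 386 of all 24469 loci. Between the proteins 0 of 45 passed in limma, and 1 did at an unadjusted p of 0.05, which 4.87% of all loci passed.

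**Figure D4:**
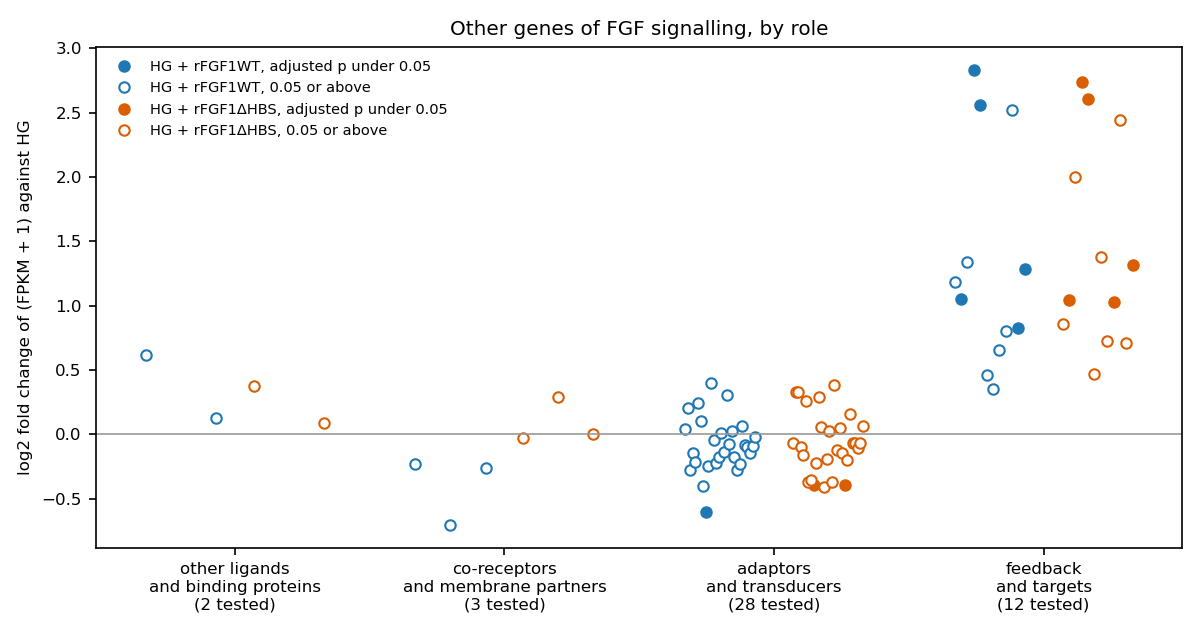
Log2 fold change of FPKM + 1 against HG (vertical axis) for the 45 tested genes of FGF signalling, by role (horizontal axis). Points are single genes, blue for rFGF1WT and orange for rFGF1ΔHBS, filled where the adjusted p is under 0.05 in the filtered fit. Etv4, Etv5 and Spry4 entered that fit only through the libraries with FGF1. All 12 feedback and target genes lie above 0 with both proteins, and the 28 adaptors and transducers lie on both sides. Of all 10562 tested loci, 4621 had a change above 0 with rFGF1WT and 4681 with rFGF1ΔHBS.

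Of 21 other ligands and binding proteins, 14 were listed and 2 reached 1 FPKM. Fgf18, a ligand known from bone and lung, was at 2.06 and 1.17 FPKM in HG, 2.98 and 2.94 with rFGF1WT, and 2.02 and 2.69 with rFGF1ΔHBS, and it passed with neither protein (log2 fold change 0.62, adjusted p = 0.170, and 0.37, adjusted p = 0.354). Fgfbp3, which releases FGFs from the matrix, was at 1.22 FPKM on average and did not pass either. Among the ligand genes, Fgf18, Fgf7 and the Fgf2 locus were the ones with a mean of at least 1 FPKM.

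Of 7 co-receptors and membrane partners, 3 were tested and none passed. Cdh2, the gene of N-cadherin, which can hold FGFR1 at the membrane, was the highest at 33.1 FPKM. The klotho gene Kl was at 0.0251 FPKM and Lctl at 0.0978, so each gene of the klotho family on the list was under 0.1, as was Klb.

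Of 29 adaptors and transducers 28 were tested, with a median log2 fold change of -0.10 with rFGF1WT and -0.08 with rFGF1ΔHBS, against -0.04 over all loci in both. Gab1, the docking protein that acts after Frs2 and Grb2, was at 10.2 and 10.7 FPKM in HG, 6.63 and 6.44 with rFGF1WT, and 7.93 and 7.49 with rFGF1ΔHBS. It fell by 0.60 with rFGF1WT (SE 0.0602, adjusted p = 0.0189) and by 0.40 with rFGF1ΔHBS (SE 0.0602, adjusted p = 0.0405) on the log2 scale. Pik3r2, a regulatory subunit of PI3 kinase, fell by 0.39 with rFGF1ΔHBS (adjusted p = 0.0407), with a value of -0.28 for rFGF1WT (adjusted p = 0.0818). The other 26 tested adaptors and transducers did not pass with either protein, among them Akt1, the most abundant at 54.6 FPKM.

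Of 14 feedback and target genes 12 were tested. The fitted change of all 12 was above 0 with both proteins, with medians of 1.12 and 1.18 on the log2 scale. Of all 10562 loci tested, 4621 had a change above 0 with rFGF1WT and 4681 with rFGF1ΔHBS. Among the 12 genes, Etv4, Etv5 and Spry4 were under 1 FPKM in HG and entered the test only through the libraries with FGF1. The count and the medians are therefore descriptions, and the adjusted p of these 3 genes is given from the fit of all loci without that filter. The ERK-induced transcription factors Etv5 and Etv4 changed most of those that passed. Etv5 was at 0.486 and 0.578 FPKM in HG, 7.72 and 8.31 with rFGF1WT, and 8.23 and 8.42 with rFGF1ΔHBS, and rose by 2.56 (adjusted p = 0.00677) and 2.61 (adjusted p = 0.00721). Etv4 was at 0.0580 and 0.0786 FPKM in HG and at 5.42 to 8.03 with FGF1, with log2 fold changes of 2.83 (adjusted p = 0.0189) and 2.74 (adjusted p = 0.0229).

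The Sprouty gene Spry4 rose from 0.0568 and 0.0590 FPKM in HG to between 1.48 and 1.69 with FGF1 (log2 fold changes of 1.29 and 1.32, adjusted p = 0.0252 and 0.0262). Dusp5, a nuclear phosphatase of ERK, rose by 1.05 with each protein (adjusted p = 0.0131 and 0.0140). Spred3 rose with rFGF1ΔHBS (1.03, adjusted p = 0.0392) and had a value of 0.80 with rFGF1WT (adjusted p = 0.0656), and Spry2 rose with rFGF1WT (0.83, adjusted p = 0.0492) and had a value of 0.71 with rFGF1ΔHBS (adjusted p = 0.0648). Neither gene passed between the proteins. Fits with 1 library left out kept the filter that Etv4, Etv5 and Spry4 passed only through the libraries with FGF1. In them, the lone library of a group is assumed to vary like the other groups. Each of Etv4, Spry4, Dusp5 and Spred3 then missed the adjusted p of 0.05 in at least 1 fit. Spry2, Gab1 and Pik3r2, which changed less than 2-fold on this scale with all libraries, missed it in every such fit. Spred1, the most abundant of the group at 19.3 FPKM, was at 11.1 and 10.4 FPKM in HG, 6.73 and 28.1 with rFGF1WT, and 30.5 and 28.8 with rFGF1ΔHBS, and did not pass.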

How the data were processed

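MPCs of 6 libraries (3 groups of 2, grouped by the labelled treatment) were profiled by RNA-Seq. The authors deposited FPKM, summarized with edgeR according to their methods; the submitters' processing notes also name HISAT2 2.0, StringTie 1.3.0 and Bowtie 0.12.2 and the build mm8, without roles, and strand is not stated. Pathway columns of the table were not used.

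Here loci whose FPKM averaged 1 or more (10562) were analysed as log2(FPKM + 1) by limma 3.58.1 under R 4.3.3 (lmFit, contrasts, eBayes with a trend; 3 residual degrees of freedom) on all 6 libraries, with Benjamini-Hochberg adjustment over all loci. A call needed an adjusted p under 0.05 and 2-fold; the 2-fold limit is stated where used. The fit was tested on simulated data. Positions come from GENCODE M21 (GRCm38) through Ensembl transcripts, 99.6% of which were found. Fragments were estimated from the step of FPKM times length at loci with a single transcript; 39.7% to 42.0% of low values lay on these steps within 0.05 fragment, against 10% by chance, so reads were not recovered and a count test was not run.

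Alternatives were another pseudocount, other filters on low FPKM, other scalings, robust empirical Bayes, fewer libraries, a replicate block, no 2-fold limit and, added after the data were seen, both proteins together and an unfiltered fit for Fgf1, Etv4, Etv5 and Spry4. The members and lists were chosen with earlier results of these data known. Named genes were all members and, from the signalling list, those past both limits and the most abundant of each role; Gab1, Pik3r2, Spry2, Fgfbp3, Kl and Lctl were named after their values were seen. Plots used matplotlib 3.10.9 and tables pandas 2.3.3, under Python 3.11.15.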

Additional observations from a re-analysis of the deposited data

How the results depend on the processing

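Of the fitted changes of the members against HG, all kept their direction under every alternative tried, but some sizes moved by over 1.5 times. With a pseudocount of 0.1 the values with rFGF1WT and rFGF1ΔHBS were 0.85 and 0.62 for Fgf1, 0.63 and 0.71 for Fgf2, and 0.88 and 0.94 for Fgf7. Without the first HG library they were 0.10 and 0.18 for Fgfr1 and 0.19 and 0.24 for Fgf2, and 0.12 for Fgf1 with rFGF1ΔHBS, while Fgf2 with rFGF1WT was 0.57 without the second. Fgfrl1 with rFGF1WT was -0.19 and -0.58 without the first and the second rFGF1WT library. Frs2 with rFGF1WT was -0.05 and -0.04 under median-ratio and quantile scaling and -0.51 with both proteins together, a value that takes in the low library. The adjusted p of the Fgfr2 and Ctbp2 locus and of Fgf7 was above 0.05 with only the 4 libraries compared (0.0539 and 0.0678 for the former with rFGF1WT and rFGF1ΔHBS, 0.0995 and 0.0626 for the latter) and with each library left out in turn, settings that have fewer samples by construction. Between the proteins, leaving out 1 library turned the sign of small values, with ranges of -0.080 to 0.028 for Fgfr3, -0.23 to 0.16 for Fgfrl1, -0.040 to 0.15 for Fgf2 and -0.047 to 0.14 for Fgf7.

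Members past both limits were 0 in each comparison, and 2, 2 and 0 without the 2-fold limit (rFGF1WT against HG, rFGF1ΔHBS against HG, and rFGF1ΔHBS against rFGF1WT). With 1 library left out they were 0, 0 to 1 and 0 to 1, the 1 being Frs2 without the second rFGF1ΔHBS library. The signalling list gave 4, 5 and 0 calls, with 1, 1 and 0 when loci had to average 5 FPKM, 6, 7 and 0 without the 2-fold limit, and 1 to 4, 1 to 5 and 0 to 1 with 1 library left out. Etv4, Etv5 and Spry4 entered these counts only through the libraries with FGF1, and without the filter the list gave 4, 4 and 0 calls. Over all loci, 107, 95 and 37 were called. Their number was 152, 151 and 40 with a pseudocount of 0.1, 69, 64 and 18 when they had to average 5 FPKM, 89, 84 and 13 with loci above 0 in all libraries, 654, 661 and 58 without the 2-fold limit, and 101 to 155, 104 to 133 and 43 to 103 with 1 library left out; the cause was not tested.

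Labels number the replicates alike in each group, but same-numbered libraries did not deviate together (r = -0.02, 0.10 and -0.05 over 10562 loci). A correlation over all loci cannot show whether they shared a culture or a batch, as a batch that moves few loci would leave it near 0. With the replicate block 39, 36 and 6 loci, and 1, 1 and 0 genes of the signalling list, were called, and the adjusted p of the Fgfr2 and Ctbp2 locus was 0.0698 and 0.0784 and that of Fgf7 0.121 and 0.110.

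FPKM of the ligand genes rest on few fragments, and 2 libraries a group leave 3 residual degrees of freedom, which limits the precision of every value.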
